A study of Rattus norvegicus with 9 samples.

Results

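The genes of the RT1 complex, the major histocompatibility complex of the rat, and of antigen presentation were read out in the liver of rats given diethylnitrosamine (DEN), with or without Pien Tze Huang (PZH). The members were the 31 genes whose symbol starts with RT1- and 11 further genes, B2m, Cd74, Ciita, Tap1, Tap2, Tapbp, Psmb8, Psmb9, Nlrc5, Cd80 and Cd86, which makes 42 of the 32883 genes in the table. They were picked by name, with earlier results of these data known. Of these, 39 had enough reads to be tested in DEN rats against normal rats and in PZH rats against DEN rats, and 36 in PZH rats against normal rats. RT1-Db2, RT1-Ha and RT1-S2 were not tested in any comparison, with at most 3, 9 and 13 reads in a rat.

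Liver RNA of 9 male Sprague-Dawley rats was sequenced, with 3 rats in each group and 1 library per rat. The normal control rats (N1, N3 and N12) had a normal diet. The DEN model rats (M13, M17 and M24) and the PZH administration rats (G27, G28 and G42) both received weekly intraperitoneal injections of 0.01% DEN, a liver carcinogen, in a schedule of 16 weeks. PZH, a remedy of traditional Chinese medicine, was given to the PZH rats in addition. The sources used here do not say which PZH dose the 3 sequenced PZH rats had, nor in which week their livers were taken. GEO's treatment label says PZH for the M rats as well as the G rats, so the groups follow the first letter of each rat's name. Libraries held 14922973 to 16641954 reads counted on genes, and 27161496 in G27. The 9 hepatocyte markers summed to 169000 to 187000 CPM, the read count scaled to a common library size, in normal livers, 37700 to 87100 in DEN livers and 145000 to 182000 in PZH livers.

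Cells show peptides to T cells on 2 kinds of molecule. Class I molecules, on nearly all nucleated cells, pair a heavy chain with beta-2 microglobulin (B2m) and carry peptides that are cut by the proteasome, pumped into the endoplasmic reticulum by Tap1 and Tap2, and loaded with the help of tapasin (Tapbp). Class II molecules pair an alpha and a beta chain, are guided by the invariant chain (Cd74), and are loaded in endosomes with the help of the DM proteins, which DO restrains. Macrophages, dendritic cells and B cells carry class II at rest, hepatocytes hardly do, and interferon gamma can raise both systems through the transactivators Ciita and Nlrc5.

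The class II genes were higher in DEN livers than in normal livers, while most class I genes did not pass the test. Of the 10 tested members that make, guide, edit or transactivate class II, 9 were higher in DEN rats, none was lower, and their median log2 fold change was 1.96, against 0.03 over all 14255 genes tested. Of the 20 tested class I heavy chain genes, 3 were higher and 1 was lower. Among B2m, the 5 genes of peptide supply and Nlrc5, only Tapbp was higher. Both ligands of co-stimulation, Cd80 and Cd86, were higher. In all, 15 of 39 members were higher, against 25.3% of all genes tested, and 1 was lower, against 20.5% of all genes. Calls were by edgeR's quasi-likelihood test at a Benjamini-Hochberg adjusted p under 0.05 over all genes. In either direction 41.0% of the members were called against 45.8% of all genes, a share near the background. The members' calls leaned more to higher than those of all genes. The study itself asked for a log2 change beyond 2 in either direction with P below 0.001 before adjustment, which 5 members and 12.3% of all genes passed. With library totals in place of TMM factors, the median over all genes moved to 0.90 on the log2 scale, and 23 members were then higher and none lower. Under that scaling 89.5% of the genes called were higher, against 55.3% with TMM factors. The members gained were all of the class I pathway: RT1-A2, RT1-CE5, RT1-T24-1, RT1-T24-4, RT1-M6-2, Psmb8, Psmb9 and Nlrc5. The number of class I genes called thus depended on the scaling. TMM factors were 0.731 to 0.799 in normal rats and 1.21 to 1.58 in DEN rats.

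**Figure D1:**
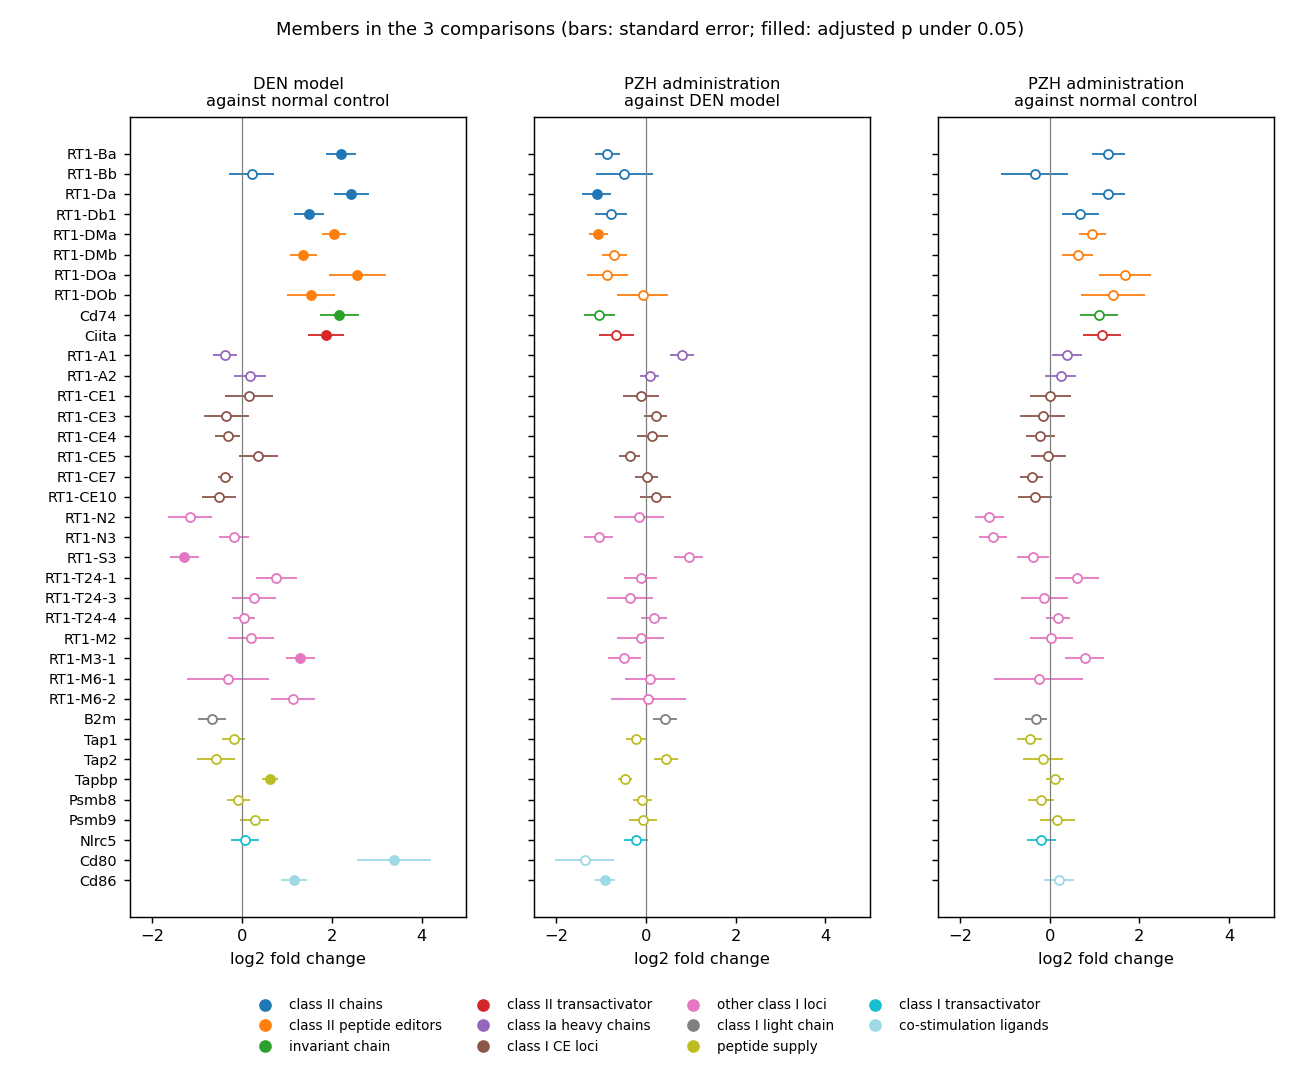
The log2 fold change of each tested member (horizontal axis) with its standard error, in the 3 comparisons, coloured by role. Filled points had an adjusted p under 0.05 in edgeR; RT1-M4 and RT1-M5, with at most 2 reads in each normal rat, are left out. In DEN rats against normal rats, every class II point but RT1-Bb is filled and lies between 1.37 and 2.57.

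Values per rat are CPM from TMM-scaled library sizes, always in the order N1, N3 and N12, then M13, M17 and M24, then G27, G28 and G42. The class II chains, which form the peptide groove, were led by RT1-Da, the alpha chain of RT1-D. It stood at 44.3, 42.3 and 98.9 CPM in normal rats, 293, 254 and 446 in DEN rats, and 198, 155 and 103 in PZH rats. Every DEN rat was above every PZH rat, and every PZH rat above every normal rat. The difference of DEN from normal rats was 5.41-fold (log2 fold change 2.44 ± 0.40, SE, edgeR adjusted p = 0.0018).

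RT1-Ba, the alpha chain of RT1-B, had 10.1, 12.8 and 23.7 CPM in normal rats, 66.5, 57.7 and 88.6 in DEN rats, and 50.6, 38.7 and 25.8 in PZH rats. Again the 3 groups did not overlap, and DEN rats were 4.60-fold above normal rats (log2 fold change 2.20 ± 0.33, edgeR adjusted p = 0.0013). RT1-Db1, the beta chain of RT1-D, had 19.6, 13 and 33.7 CPM in normal rats, 63.1, 47.2 and 74.9 in DEN rats, and 52.3, 33.5 and 19.7 in PZH rats. DEN rats were 2.82-fold above normal rats (edgeR adjusted p = 0.0074), and PZH rats overlapped both other groups.

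RT1-Bb, the beta chain of RT1-B, was the exception among class II genes. It had 3.59, 18.4 and 13.8 CPM in normal rats, 12.3, 18.1 and 10.7 in DEN rats, and 20.7, 4.17 and 3.42 in PZH rats, so all 3 groups overlapped and single rats of a group differed several-fold (log2 fold change 0.21 ± 0.50 for DEN against normal, edgeR adjusted p = 0.76). The FPKM ratio of RT1-Ba to RT1-Bb, which needs no scaling between libraries, was 7.82, 1.95 and 4.79 in normal rats, 15.1, 8.88 and 23.1 in DEN rats, and 6.81, 25.8 and 21.1 in PZH rats. By contrast, the ratio of the 2 alpha chains, RT1-Da to RT1-Ba, kept within 2.36 to 3.61 over all 9 rats. Sprague-Dawley is an outbred stock and class II genes are polymorphic, so rats can carry different alleles while reads were counted on 1 reference. The part of alleles in the RT1-Bb values was not tested.

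The promoters of these genes are shown because class II genes are known to share an X box and a Y box, which the RFX and NF-Y complexes bind and on which Ciita acts. The stretches below come from RefSeq (build GRCr8), read 5′ to 3′ on the gene's strand, each from 45 bases before the Y box core GATTGG to 10 bases after it. Capitals mark GATTGG and, where present, the X box core, AG, 2 bases of any kind, AC, 1 base of any kind and GATG, both searched on both strands.
RT1-Da (chr20:4515320-4515380, plus strand): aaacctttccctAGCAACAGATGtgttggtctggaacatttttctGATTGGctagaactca
RT1-Db1 (chr20:4560228-4560288, minus strand): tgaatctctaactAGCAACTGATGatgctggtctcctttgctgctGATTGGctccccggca
RT1-Ba (chr20:4576968-4577028, plus strand): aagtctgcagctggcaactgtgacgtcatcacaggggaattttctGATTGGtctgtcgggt
RT1-Bb (chr20:4604165-4604225, minus strand): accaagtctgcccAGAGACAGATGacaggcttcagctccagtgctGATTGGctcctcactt
RT1-DMa (chr20:4712385-4712445, minus strand): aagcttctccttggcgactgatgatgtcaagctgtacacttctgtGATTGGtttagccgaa
RT1-DOa (chr20:4758516-4758576, minus strand): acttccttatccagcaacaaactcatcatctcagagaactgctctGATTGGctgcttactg
RT1-DOb (chr20:4627592-4627652, minus strand): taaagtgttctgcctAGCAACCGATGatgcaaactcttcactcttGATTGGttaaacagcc

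RefSeq promoters, 250 bases before to 50 bases after a gene's start, were at hand for 36 of the 42 members; RT1-DMb, RT1-CE7, RT1-M2, RT1-M4, Ciita and Nlrc5 had none in the table. GATTGG was found in all 9 class II promoters, in 10 of 18 class I heavy chain promoters and in 14.8% of all 33469 promoters. The X box core was found in RT1-Da, RT1-Db1, RT1-Db2, RT1-Bb and RT1-DOb, which is 5 of 9 class II promoters, in 1 of 18 class I heavy chain promoters and in 0.95% of all promoters. Between the end of the X box core and the Y box core lay 19 to 22 bases in these 5 genes. RT1-Bb, whose level did not pass the test, carried both cores, as RT1-Da and RT1-Db1 did.

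Cd74, the invariant chain, was the most abundant class II transcript per length, at 49.9 to 172 FPKM in normal rats and 572 to 1080 in DEN rats. In CPM it stood at 148, 101 and 319 in normal rats, 818, 697 and 1010 in DEN rats, and 552, 411 and 243 in PZH rats. DEN rats lay 4.50-fold above normal rats with no overlap (log2 fold change 2.17 ± 0.43, edgeR adjusted p = 0.0044), and PZH rats overlapped normal rats. Without N12, the highest normal rat, the log2 fold change was 2.78. Ciita, the transactivator of class II genes, had 4.29, 2.52 and 6.64 CPM in normal rats, 13.9, 11.4 and 23.4 in DEN rats, and 14.5, 9.74 and 5.77 in PZH rats. It was 3.65-fold higher in DEN than in normal rats (log2 fold change 1.87 ± 0.40, edgeR adjusted p = 0.0058).

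All 4 editors of class II peptides were higher in DEN rats. RT1-DMa, the alpha chain of the DM editor, had 3.67, 4.53 and 6.64 CPM in normal rats, 19.9, 17.8 and 23.0 in DEN rats, and 11.2, 9.18 and 8.12 in PZH rats. The groups did not overlap, and DEN rats were 4.12-fold above normal rats (log2 fold change 2.04 ± 0.27, edgeR adjusted p = 0.00069). RT1-DMb, its beta chain, had 6.24, 4.95 and 10.3 CPM in normal rats, 20.5, 14.4 and 20 in DEN rats, and 14.6, 10.4 and 7.90 in PZH rats, and was 2.58-fold higher in DEN than in normal rats (adjusted p = 0.0066).

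The chains of DO, which restrains DM, were far less abundant. RT1-DOa had 0.390, 0.168 and 0.763 CPM in normal rats, 2.72, 1.34 and 3.86 in DEN rats, and 1.28, 1.74 and 1.28 in PZH rats. This is 5.94-fold more in DEN than in normal rats, on 2 to 10 reads in each normal rat (edgeR adjusted p = 0.010), and without N12 the log2 fold change went from 2.57 to 3.22. RT1-DOb had 1.01, 0.252 and 0.534 CPM in normal rats, 1.74, 1.34 and 2.12 in DEN rats, and 2.39, 1.95 and 0.427 in PZH rats. Its 2.90-fold difference of DEN from normal rats had an edgeR adjusted p of 0.043 and was lost without any one of N3, N12, M13, M17 or M24, with all 3 groups in 1 fit, and with no filter on low counts.

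The table holds a further copy of each DM gene under another name, LOC108348072, described as an M alpha chain, and LOC108348139, described as an M beta 1 chain, and reads of near-identical copies may have been split between them. These copies were looked up after their values were seen. The copies were higher in DEN than in normal rats too, by a log2 fold change of 1.86 ± 0.24 (edgeR adjusted p = 0.00068) for the alpha copy and 2.01 ± 0.30 (adjusted p = 0.0013) for the beta copy. RT1-DMa held 42% to 53% of the summed reads of both alpha genes in the 9 rats, and RT1-DMb 36.0% to 53.7% of the beta genes. Summed over both copies, DMa stood at 8.73 to 13.4 CPM in normal rats, 34.2 to 44.4 in DEN rats and 15.3 to 22.6 in PZH rats.

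**Figure D2:**
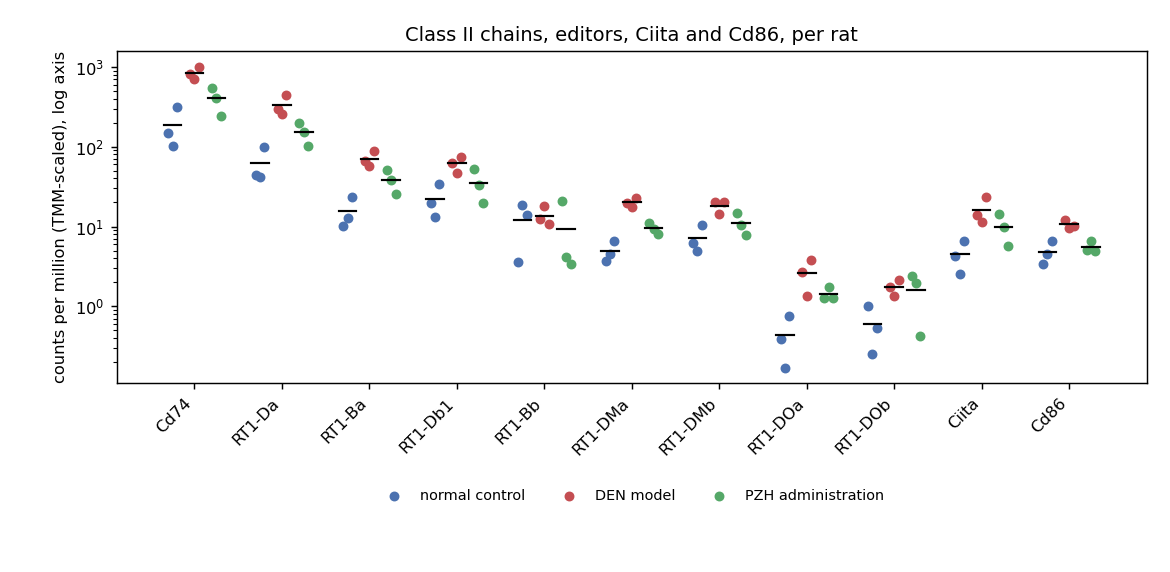
CPM (log axis) of 11 members in each rat, by group, with bars at the group means. For RT1-Da, RT1-Ba, RT1-DMa and Cd74 all DEN rats lie above all PZH and normal rats, while RT1-Bb overlaps in every group.

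Leukocyte markers differed beside these genes, not all in the same direction. All 5 pan-leukocyte markers were higher in DEN than in normal rats, among them Ptprc, the CD45 gene, with a log2 fold change of 1.75 (edgeR adjusted p = 0.0021). Their sum ranged from 70.0 to 103 CPM in normal rats, 195 to 377 in DEN rats and 115 to 151 in PZH rats. Of 7 tested dendritic cell markers 2 were higher and none lower, a share of 28.6% that is near that of all genes, and of 10 tested T and NK cell markers 8 were higher and none lower. Of 10 tested macrophage markers none was higher and 4 were lower by edgeR (3 higher and 4 lower at an unadjusted p under 0.05, 1 higher and 4 lower in DESeq2). The summed macrophage markers ranged from 715 to 1230 CPM in normal rats, 702 to 844 in DEN rats and 348 to 808 in PZH rats.

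None of 5 tested B cell markers passed edgeR's test in either direction, and none had an unadjusted p under 0.05 or a DESeq2 call. Their sum was 11.6 to 22.6 CPM in normal rats, 17.2 to 18.5 in DEN rats and 8.54 to 18.3 in PZH rats. Log2 fold changes of the 5 tested B cell markers in DEN against normal rats ran from −0.41 to 1.325. Pax5, another gene near the floor of 3 reads used here, had 0 reads in every normal rat and 2 to 7 in DEN rats. The summed dendritic cell markers ranged from 18.4 to 29.1 CPM in normal rats, 46.5 to 56.8 in DEN rats and 32.0 to 49.9 in PZH rats. The summed T and NK cell markers ranged from 28.9 to 52.8, 89.8 to 144 and 40.6 to 55 CPM in the same order. Other cells of the liver moved too: all 8 cholangiocyte markers and 7 of 8 stellate and myofibroblast markers were higher in DEN than in normal rats by edgeR, 3 of 9 hepatocyte markers were lower (6 at an unadjusted p under 0.05, 8 in DESeq2), and of 5 endothelial markers 1 was higher and 3 were lower. The part of these cells in the class II difference was not tested. In whole liver, more cells of a type and more RNA per cell cannot be told apart.

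The class II genes were also set against Ptprc within each rat. Fold differences of ratios, here and below, compare geometric means over the rats of a group, while values with an SD are arithmetic means. The FPKM ratio of Cd74 to Ptprc was 25.7 ± 14.5 (SD, n = 3) in normal rats, 35.0 ± 5.99 in DEN rats and 35.7 ± 13.5 in PZH rats, with overlapping groups. The ratio of RT1-Da to Ptprc was 3.96, 2.42 and 6.41 in normal rats, 6.61, 7.59 and 6.50 in DEN rats, and 9.28, 6.34 and 5.22 in PZH rats. DEN rats lay just above normal rats in this ratio, by 1.74-fold (exact two-sided permutation p = 0.10, the smallest that 3 against 3 rats allow, and 0.27 after Benjamini-Hochberg adjustment over 48 tests of 16 ratios). RT1-Ba to Ptprc was 1.49-fold higher in DEN than in normal rats, with overlapping groups (exact permutation p = 0.3). Cd86 to Ptprc and RT1-Da to Itgax were lower in DEN rats, with overlapping groups. Cd86 to Ptprc stood at 0.703-fold (exact permutation p = 0.40). RT1-Da to Itgax, a dendritic cell marker, was 111 ± 87.6 in normal and 30.0 ± 8.02 in DEN rats, 0.344-fold (exact permutation p = 0.20). It spread from 31.7 to 205 over the normal rats. Itgax was the only dendritic cell marker used in a ratio. Log2 fold changes of the 7 tested dendritic cell markers ran from −0.23 to 3.66 with a median of 0.79, against 2.44 for RT1-Da. Since 0.10 is the smallest p possible, no ratio could pass a threshold of 0.05.

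Class I heavy chains present peptides from inside the cell, and RT1-A encodes the classical ones. RT1-A2 had 259, 99.8 and 283 CPM in normal rats, 232, 206 and 276 in DEN rats, and 227, 236 and 286 in PZH rats. N3 stood below all other rats, the groups overlapped, and the log2 fold change of DEN from normal rats was 0.18 ± 0.36 (edgeR adjusted p = 0.72). RT1-A2 was called higher by edgeR with library totals in place of TMM factors. RT1-A1, whose span in the file contains RT1-A2, had 24.1, 13.8 and 28.8 CPM in normal rats, 16.8, 14.6 and 19.0 in DEN rats, and 20.4, 41.1 and 25.3 in PZH rats (log2 fold change −0.39 ± 0.27 for DEN against normal, edgeR adjusted p = 0.27).

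Of the 6 genes of the RT1-CE group, further class I heavy chains, none was called in DEN rats by edgeR with TMM factors and all rats. None had an unadjusted p under 0.05 in that fit, and none was called by DESeq2. With library totals edgeR called RT1-CE5 higher. RT1-CE5, the most abundant of them per length, had 62.8, 21.9 and 84.4 CPM in normal rats, 84.9, 49.5 and 79.8 in DEN rats, and 64.1, 47.4 and 52.0 in PZH rats. RT1-CE4 had 53.1, 34.6 and 57.4 CPM in normal rats, 38.1, 25.8 and 50.3 in DEN rats, and 33.9, 27.1 and 63.6 in PZH rats. In both genes the 3 groups overlapped. RT1-CE7 had 24.1, 25.9 and 26.9 CPM in normal rats, 17.8, 20 and 20.8 in DEN rats, and 25.8, 18.8 and 13.5 in PZH rats. DEN rats lay below normal rats here without overlap, while 58.8% of all genes tested separated these groups in one direction or the other, and the edgeR adjusted p was 0.095. RT1-CE10 had 13.3, 6.29 and 15.9 CPM in normal rats, 8.10, 5.49 and 11 in DEN rats, and 11.2, 5.77 and 11.1 in PZH rats. The spans of RT1-CE1, RT1-CE4 and RT1-CE7 in the file each overlap at least 3 other RT1 genes and also Tnf, Lta and Ltb, so counts of single RT1-CE genes are uncertain.

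RT1-S3 was the one member that edgeR called lower in DEN rats with all rats in the fit. DESeq2 called B2m and RT1-N2 lower in addition, edgeR without N3 called Tap2, RT1-A1 and RT1-CE3 lower, and edgeR without M17 or without M24 called RT1-N2 lower. RT1-S3 had 192, 224 and 393 CPM in normal rats, 121, 127 and 80.3 in DEN rats, and 304, 178 and 142 in PZH rats. Every DEN rat was below every normal and every PZH rat, and DEN rats had 2.44-fold less than normal rats (log2 fold change −1.29 ± 0.32, edgeR adjusted p = 0.012). With library totals in place of TMM factors this call was lost. RT1-N2, a nearby class I gene, had 94.0, 99.2 and 131 CPM in normal rats, 49.0, 14.5 and 79.3 in DEN rats, and 33, 27.9 and 66.3 in PZH rats (log2 fold change −1.17 ± 0.50 for DEN against normal, edgeR adjusted p = 0.086; DESeq2 adjusted p = 0.037). Every DEN rat was below every normal rat, and its M17 value was the lowest of all 9 rats.

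RT1-N3 had 26.3, 15.9 and 33.6 CPM in normal rats, 27, 13.1 and 25.6 in DEN rats, and 13.5, 8.14 and 9.47 in PZH rats, so DEN and normal rats overlapped while PZH rats were below all normal rats. RT1-T24-4 had 27.5, 21.2 and 34.9 CPM in normal rats, 35.2, 28.9 and 21.1 in DEN rats, and 39.7, 33.6 and 21.4 in PZH rats, with all groups overlapping.

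Of the RT1-M group, non-classical class I genes, 3 were higher in DEN rats. RT1-M3-1 had 1.95, 1.93 and 3.28 CPM in normal rats, 5.13, 6.73 and 5.60 in DEN rats, and 6.18, 3.27 and 2.71 in PZH rats, and was 2.46-fold higher in DEN than in normal rats (edgeR adjusted p = 0.012). RT1-M4 had 0 reads in all 3 normal rats, 40, 28 and 21 reads in DEN rats, and 26, 11 and 21 in PZH rats. Against a floor of 3 reads in each normal library, DEN rats were at least 5.24-fold higher (edgeR adjusted p = 0.0023).

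RT1-M5 had 0, 0 and 2 reads in normal rats, 30, 19 and 24 in DEN rats, and 8, 4 and 21 in PZH rats. The ratio of the pooled reads of DEN to normal rats was 20.3 (95% exact interval 5.44 to 171, counting error only; edgeR adjusted p = 0.0050), and without N12 no normal read remained. All 3 RT1-M genes were rare, at 6.73 CPM or less in every rat. The other 7 tested RT1 genes, RT1-CE1, RT1-CE3, RT1-T24-1, RT1-T24-3, RT1-M2, RT1-M6-1 and RT1-M6-2, ranged from 0 to 10.1 CPM over the 9 rats, and their log2 fold changes of DEN from normal rats ran from −0.35 to 1.14. None of these 7 was called in that comparison by edgeR with TMM factors, or by DESeq2, with all rats in the fit. Only RT1-M6-2, whose span overlaps RT1-M6-1, had an unadjusted edgeR p under 0.05 with TMM factors (0.047). With library totals edgeR called RT1-M6-2 and RT1-T24-1 higher.

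B2m, the light chain shared by class I molecules, was the most abundant member per length, at 829 to 1490 FPKM over the 9 rats. It had 1910, 2900 and 2550 CPM in normal rats, 1470, 1370 and 1720 in DEN rats, and 2150, 2040 and 1790 in PZH rats. In these TMM-scaled values DEN rats lay below the other rats without overlap. The difference from normal rats did not pass edgeR's test (log2 fold change −0.68 ± 0.32, adjusted p = 0.12), and DESeq2 called B2m lower (adjusted p = 0.013). In FPKM, which uses library totals, normal rats had 829, 1160 and 1110 and DEN rats 1200, 909 and 1490, with overlap, so the separation depended on the scaling.

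Tap1 and Tap2 form the pump that brings peptides into the endoplasmic reticulum. Tap1 had 36.1, 22.7 and 44.5 CPM in normal rats, 28.8, 26.5 and 33.9 in DEN rats, and 31.5, 20.9 and 22.5 in PZH rats. Tap2 had 15.9, 4.53 and 17.6 CPM in normal rats, 7.81, 9.25 and 8.09 in DEN rats, and 15.2, 8.69 and 9.68 in PZH rats. N3 was the lowest normal rat for both, the groups overlapped, and the log2 fold changes of DEN from normal rats were −0.19 ± 0.25 and −0.58 ± 0.43 (edgeR adjusted p = 0.55 and 0.30). Without N3, edgeR called Tap2 lower in DEN rats. Tapbp, tapasin, had 53.9, 35.6 and 50.2 CPM in normal rats, 73.7, 71.9 and 65.8 in DEN rats, and 55.3, 46.7 and 48.3 in PZH rats. It was 1.54-fold higher in DEN than in normal rats without overlap (log2 fold change 0.62 ± 0.19, edgeR adjusted p = 0.025), a call that was lost without N12 or M13.

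Psmb8 and Psmb9 are subunits of the immunoproteasome, which takes the place of the constitutive Psmb5 and Psmb6. Psmb8 had 41, 27 and 57.1 CPM in normal rats, 39.1, 41.9 and 35.4 in DEN rats, and 45.7, 33.8 and 28.6 in PZH rats. Psmb9 had 18.8, 9.65 and 24.6 CPM in normal rats, 20.8, 18.0 and 24.6 in DEN rats, and 30.0, 15 and 14 in PZH rats. Neither passed edgeR's test with TMM factors in DEN against normal rats (log2 fold changes −0.09 ± 0.26 and 0.28 ± 0.32, adjusted p = 0.81 and 0.50). Both were called higher with library totals. Nlrc5, the transactivator of class I genes, had 11.6, 6.12 and 13.5 CPM in normal rats, 8.70, 11 and 12.6 in DEN rats, and 11.3, 9.04 and 6.76 in PZH rats (log2 fold change 0.07 ± 0.31, edgeR adjusted p = 0.88).

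The balance of immunoproteasome to constitutive subunits was read within each rat from FPKM. The ratio of Psmb9 to Psmb6 was 0.523, 0.271 and 0.561 in normal rats, 0.756, 0.756 and 0.812 in DEN rats, and 0.603, 0.496 and 0.380 in PZH rats, so DEN rats lay above all others. The ratio of Psmb10, the third immunoproteasome subunit, to Psmb7 was 0.354, 0.621 and 0.499 in normal rats, 1.48, 1.08 and 1.46 in DEN rats, and 0.612, 0.686 and 0.637 in PZH rats, again with DEN rats above all others. In counts, Psmb10 was higher (log2 fold change 0.83 ± 0.23, edgeR adjusted p = 0.016) and Psmb7 lower (−0.62 ± 0.18, adjusted p = 0.021) in DEN than in normal rats. Psmb9 itself did not pass that test (0.28 ± 0.32, edgeR adjusted p = 0.50), so its higher ratio does not by itself show more Psmb9. The ratio of Psmb8 to Psmb5 overlapped between groups, at 0.138 ± 0.0538 (SD, n = 3) in normal rats, 0.163 ± 0.0333 in DEN rats and 0.111 ± 0.0354 in PZH rats. For Psmb9 to Psmb6 and Psmb10 to Psmb7, DEN against normal rats had an exact permutation p of 0.10, the smallest possible, and 0.27 after adjustment.

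**Figure D3:**
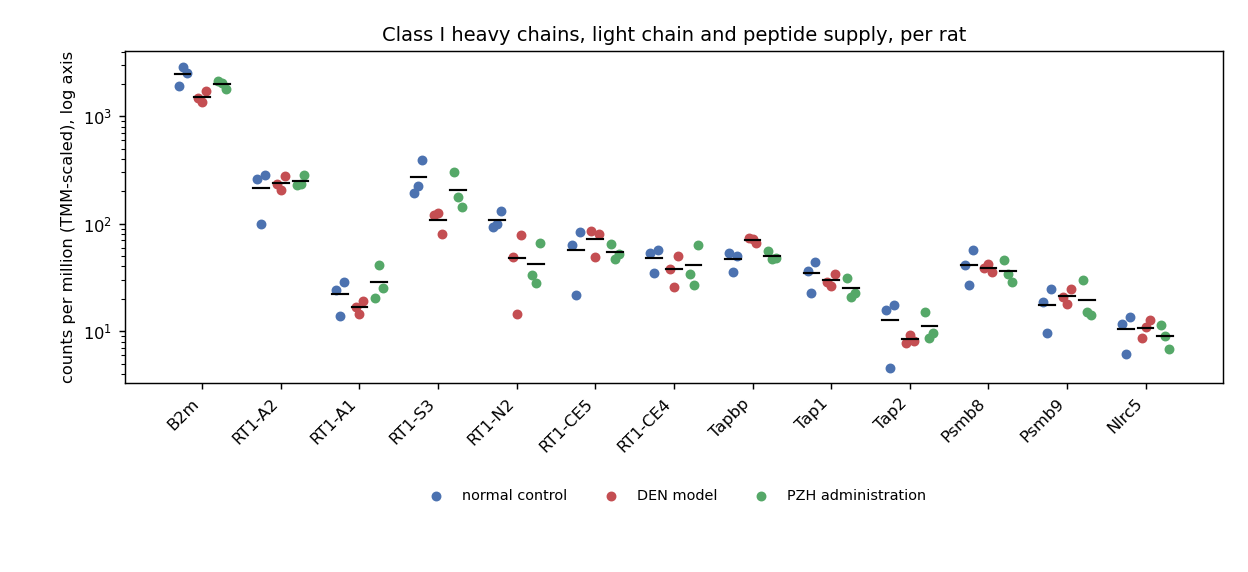
CPM (log axis) of 13 members of the class I pathway in each rat, by group, with bars at the group means. RT1-S3 and B2m lie lower and Tapbp higher in DEN rats without overlap, and all DEN rats lie below all normal rats for RT1-N2; DEN and normal rats overlap for the other genes drawn.

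Class I promoters are shown for 2 elements known to act on them, enhancer A, which NF-kappa B binds, and the interferon-stimulated response element (ISRE). Capitals mark enhancer A, GGGGA followed at once by TTCCC, in the first 2, and the ISRE core, GAAA, 2 bases of any kind and GAAA again, or its reverse complement, in the last 3, all from RefSeq, build GRCr8, on the gene's strand.
RT1-A2 (chr20:4872682-4872721, plus strand): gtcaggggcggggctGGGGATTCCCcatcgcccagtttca
RT1-A1 (chr20:4907068-4907107, plus strand): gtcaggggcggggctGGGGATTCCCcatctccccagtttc
B2m (chr3:129549165-129549204, plus strand): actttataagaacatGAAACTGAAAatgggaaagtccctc
Tap2 (chr20:4652313-4652352, minus strand): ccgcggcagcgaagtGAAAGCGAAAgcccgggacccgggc
Psmb8 (chr20:4657011-4657050, minus strand): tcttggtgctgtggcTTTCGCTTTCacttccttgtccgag

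The letters of enhancer A were found, on either strand, in RT1-A1, RT1-A2, RT1-CE4 and RT1-CE10, 4 of 18 class I heavy chain promoters, in none of 9 class II promoters and in 0.114% of all promoters. The ISRE core was found in B2m, Tap1, Tap2, Tapbp and Psmb8, 5 of the 6 promoters of the light chain and peptide supply, in 3 of 18 class I heavy chain promoters, in none of the 9 class II promoters and in 3.92% of all promoters. Of these 5 genes, only Tapbp passed edgeR's test with TMM factors and all rats in DEN against normal rats. A match of letters is a description of the sequence and does not show that a factor was bound.

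To set class II against class I without any scaling between libraries, ratios of FPKM were taken within each rat. The ratio of Cd74 to B2m was 0.0961, 0.0431 and 0.154 in normal rats, 0.687, 0.630 and 0.726 in DEN rats, and 0.316, 0.249 and 0.168 in PZH rats. The 3 groups did not overlap, and by geometric means the ratio was 7.90-fold higher in DEN than in normal rats and 2.75-fold higher in PZH than in normal rats. The ratio of RT1-Da to RT1-A2 was 0.120, 0.298 and 0.246 in normal rats, 0.891, 0.868 and 1.14 in DEN rats, and 0.615, 0.462 and 0.254 in PZH rats, so that in DEN rats the class II chain was about as abundant per length as the class I chain. DEN rats were above all others in both ratios (exact two-sided permutation p = 0.10 for DEN against normal and for PZH against DEN, the smallest possible, and 0.27 after adjustment).

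**Figure D4:**
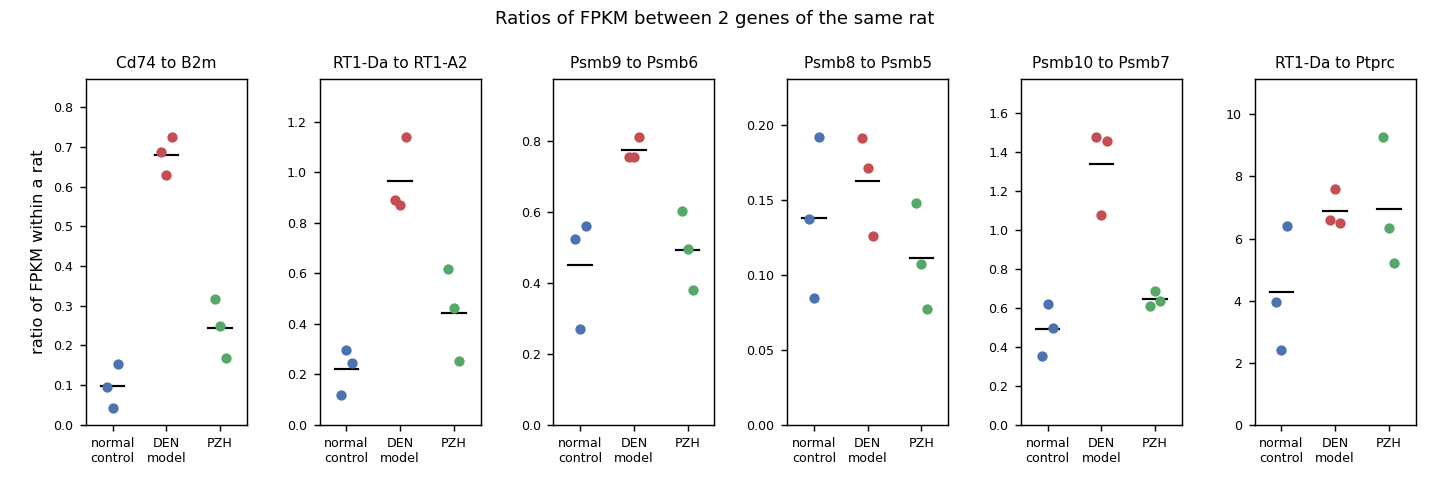
Ratio of the FPKM of 2 genes in each rat (vertical axis, from 0), by group, with bars at the group means. DEN rats lie above all other rats for Cd74 to B2m, RT1-Da to RT1-A2, Psmb9 to Psmb6 and Psmb10 to Psmb7, and overlap for Psmb8 to Psmb5 and, with PZH rats, for RT1-Da to Ptprc.

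Cd80 and Cd86 are the ligands by which antigen-presenting cells co-stimulate T cells. Cd86 had 3.36, 4.53 and 6.64 CPM in normal rats, 12.2, 9.70 and 10.1 in DEN rats, and 5.12, 6.68 and 4.91 in PZH rats. DEN rats lay above all others, 2.22-fold above normal rats (log2 fold change 1.15 ± 0.29, edgeR adjusted p = 0.012), a call lost without M13. Cd80 was rare, with 4, 0 and 3 reads in normal rats, 23, 31 and 80 in DEN rats, and 16, 18 and 4 in PZH rats. DEN rats were above normal rats without overlap (log2 fold change 3.38 ± 0.82, edgeR adjusted p = 0.010), by 2.75 on the log2 scale without M24.

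Genes that work beside the members, in 4 lists of class I partners, class II partners, the interferon gamma axis and co-stimulation, moved in both directions in DEN against normal rats. Of 47 tested, 17 were higher and 6 lower by edgeR, 48.9% against 45.8% of all genes. Among the 16 class II partners, 5 were higher and 4 lower. Rfx5, a subunit of the complex that binds the X box, was 4.28-fold higher (log2 fold change 2.10 ± 0.21, adjusted p = 0.00025), while Rfxap, a subunit of the same complex, was lower (−0.73 ± 0.21, adjusted p = 0.019). Of the NF-Y subunits, which bind the Y box, Nfya was higher (0.89 ± 0.23, adjusted p = 0.012) and Nfyc lower (−0.61 ± 0.18, adjusted p = 0.023). The endosomal proteases Lgmn and Ctss were higher, by log2 fold changes of 1.84 ± 0.23 and 1.10 ± 0.35 (adjusted p = 0.00053 and 0.030), and Ctsh was lower (−0.97 ± 0.21, adjusted p = 0.0058).

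In the interferon gamma axis 5 of 8 tested genes were higher in DEN rats and none lower. Ifngr1 and Ifngr2, the receptor chains, had log2 fold changes of 1.01 ± 0.24 and 0.69 ± 0.17 (edgeR adjusted p = 0.0092 and 0.012), and Irf1, a transcription factor, 0.78 ± 0.20 (adjusted p = 0.013). Ifng itself was at or near 0, with 0 reads in all normal rats, 0, 0 and 2 in DEN rats and 0, 1 and 3 in PZH rats, and was not tested. Of 7 tested genes of co-stimulation and checkpoints 5 were higher and none lower: Cd276, Cd28, Ctla4, Cd40 and Icos. Cd276, a B7-family ligand, had the smallest adjusted p of these, with a log2 fold change of 3.34 ± 0.19 (edgeR adjusted p = 2.4e-05). The fitted log2 fold changes of Ctla4, 5.14 ± 1.10, and Cd28, 4.12 ± 0.83, were larger but rest on means of 0.0254 and 0.0775 CPM in normal rats (edgeR adjusted p = 0.0058 and 0.0045).

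Neighbouring genes of the RT1 region did not all move alike. In the coordinates of the authors' file, whose genome build is not given in the sources used here, the class II genes from RT1-Ha to RT1-Da lie at chr20:3875706-4132616. Psmb9, Tap1, Psmb8 and Tap2, none called by edgeR with TMM factors and all rats, lie between RT1-DOa and RT1-DOb, both higher in DEN rats. Within 2.5 Mb on either side of RT1-DOa, 162 genes were tested, of which 40 were higher and 31 lower. These are near the shares over all genes tested, 25.3% higher and 20.5% lower. The 31 members among the 162 genes had 11 higher and 1 lower, and the 131 other genes 29 higher and 30 lower, with medians of 0.27 and −0.13 on the log2 scale. RT1-DMa and RT1-DMb sit apart from the other class II genes in the file, nearer to RT1-A1, while their copies lie in the class II stretch. In build GRCr8 the RT1-DMa promoter stretch shown above (chr20:4712385-4712445) lies between those of RT1-DOb and RT1-DOa, so its place differs there.

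**Figure D5:**
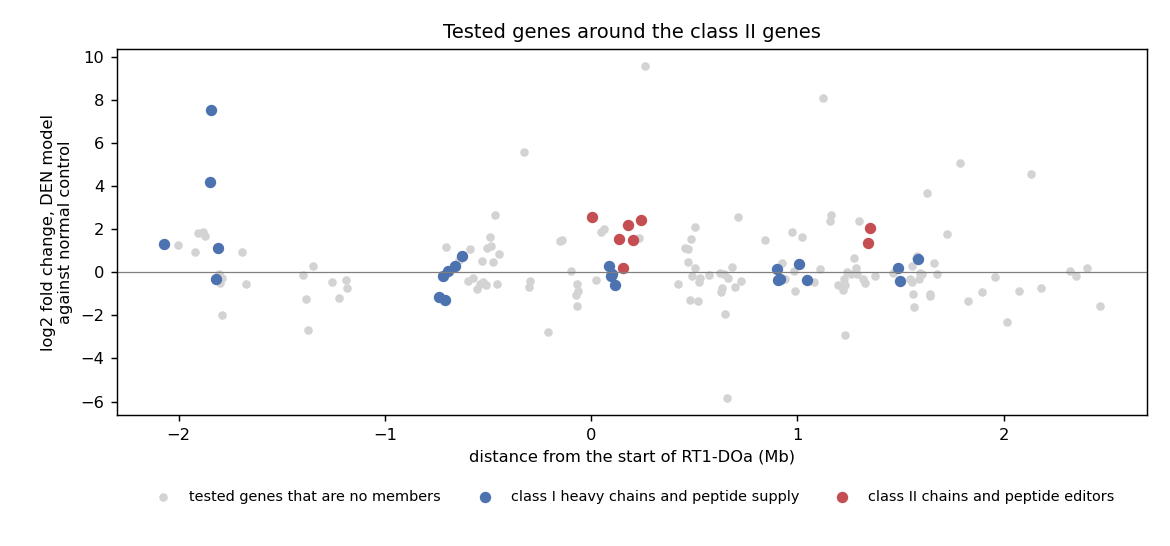
Log2 fold change of DEN against normal rats (vertical axis) of the genes tested within 2.5 Mb of the start of RT1-DOa, by distance in Mb (horizontal axis). Class II points lie above 0, the lowest being RT1-Bb at 0.21, and the peptide supply genes between them lie from −0.58 (Tap2) to 0.28 (Psmb9). The highest blue point is RT1-M4, which has no reads in normal rats and whose height therefore depends on the fit.

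In PZH rats against DEN rats, 3 members were lower and none higher by edgeR: RT1-Da, RT1-DMa and Cd86. That is 7.69% of 39 members, against 19.1% of all genes called in either direction and 10.3% called lower (8.72% higher). At an unadjusted p under 0.05, 8 members were lower and 2 higher, and DESeq2 called 6 lower and 2 higher. None passed the study's thresholds by edgeR, which 2.43% of all genes did. RT1-Da was 2.14-fold lower in PZH than in DEN rats (log2 fold change −1.10 ± 0.32, edgeR adjusted p = 0.048), RT1-DMa 2.08-fold (−1.06 ± 0.21, adjusted p = 0.017) and Cd86 1.88-fold (−0.91 ± 0.23, adjusted p = 0.031). With all 3 groups in 1 fit RT1-Da was no longer called (edgeR adjusted p = 0.058), which left 2 members. None of the 3 calls held without M13, M24, G28 or G42, each of which left 0 members called by edgeR (9, 7, 7 and 9 at an unadjusted p under 0.05). Calls over all genes fell in the same fits, to 271, 725, 1178 and 1221, against 2722 with all rats. Without M17, 6 members were lower, and without G27, the deepest library, 9 were lower and 1 higher, with Cd86 no longer called. Of all genes, 3319 were called without M17 and 2213 without G27.

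The 10 class II members all had negative log2 fold changes in PZH against DEN rats, from −1.10 to −0.08, with a median of −0.82 against 0.01 over all 14272 genes tested. Those besides RT1-Da and RT1-DMa did not pass edgeR's test, among them Cd74 at −1.04 ± 0.34 (adjusted p = 0.068), RT1-Ba at −0.86 ± 0.28 (adjusted p = 0.067), RT1-DMb at −0.71 ± 0.28 (adjusted p = 0.11) and Ciita at −0.66 ± 0.39 (adjusted p = 0.27). DESeq2 called Cd74, RT1-Ba and RT1-N3 lower, and RT1-A1 and RT1-S3 higher, in addition. With library totals in place of TMM factors, which shifts the median of all genes to −0.67, 17 members were lower and none higher, and 8.89% of the genes called were higher, against 45.7% with TMM factors.

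Among class I genes none of the 20 heavy chains was called in PZH against DEN rats by edgeR, while 2 were higher and 1 lower at an unadjusted p under 0.05, and the same numbers in DESeq2. RT1-S3 was 1.94-fold above DEN rats without overlap (log2 fold change 0.95 ± 0.33, edgeR adjusted p = 0.077), RT1-A1 1.75-fold (0.81 ± 0.27, adjusted p = 0.073), and RT1-N3 stood at −1.05 ± 0.32 (adjusted p = 0.056). Tapbp was 1.38-fold below DEN rats without overlap (−0.47 ± 0.16, adjusted p = 0.078), a separation that 40.9% of all genes showed in one direction or the other. The log2 fold changes of B2m, Tap1, Tap2, Psmb8, Psmb9 and Nlrc5 ran from −0.23 to 0.45, and none was called by edgeR or DESeq2 or had an unadjusted p under 0.05.

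Markers of leukocytes and of other liver cells moved here as well. Of the 5 pan-leukocyte markers 3 were lower in PZH than in DEN rats and none higher, among them Ptprc (log2 fold change −1.14, edgeR adjusted p = 0.026), and of 10 macrophage markers 4 were lower and none higher. Of 8 tested dendritic cell markers 2 were lower and 1 higher, of 9 T and NK cell markers 2 were lower and none higher, and none of 4 B cell markers was called by edgeR or DESeq2 or had an unadjusted p under 0.05. Of 8 cholangiocyte markers 7 were lower and none higher, and their sum went from 307 to 847 CPM in DEN rats to 93.7 to 147 in PZH rats. Of 8 stellate and myofibroblast markers 4 were lower by edgeR and 7 by DESeq2, with sums of 1100 to 3260 and 643 to 770 CPM. Of 9 hepatocyte markers 2 were higher by edgeR and 7 by DESeq2, and none was lower. The part of these cells in the class II values was not tested. The ratio of RT1-Da to Ptprc differed by 0.98-fold between PZH and DEN rats (exact permutation p = 0.80). Among the 47 partner genes 4 were lower, Lgmn (−1.36 ± 0.23, edgeR adjusted p = 0.012), Ctss (−1.11 ± 0.21, adjusted p = 0.016), Psmb10 (−0.83 ± 0.19, adjusted p = 0.023) and Ifngr1 (−0.86 ± 0.22, adjusted p = 0.030), and 1, Hfe, a class I-like gene of iron control, was higher (0.74 ± 0.21, adjusted p = 0.044).

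In PZH rats against normal rats, 1 of 36 tested members was higher and none lower by edgeR, 2.78% against 5.21% of all genes called in either direction and 4.07% called higher (1.15% lower). This was RT1-M4, the 1 member also past the thresholds of the study, which 2.32% of all genes passed. It was at least 4.46-fold higher against a floor of 3 reads in each normal library (edgeR adjusted p = 0.019). At an unadjusted p under 0.05, 7 members were higher and 2 lower, and DESeq2 called 3 higher and 2 lower. RT1-Ba and RT1-Da were 2.48-fold and 2.47-fold above normal rats without overlap, a separation that 24.2% of all genes showed in one direction or the other (log2 fold changes 1.31 ± 0.36 and 1.31 ± 0.37, edgeR adjusted p = 0.075 and 0.081), and DESeq2 called both. Cd74 was at 1.10 ± 0.43 (adjusted p = 0.21) and Ciita at 1.17 ± 0.43 (adjusted p = 0.17).

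RT1-N2 and RT1-N3, class I genes near each other, had less in PZH than in normal rats by 2.54-fold and 2.40-fold without overlap, with an edgeR adjusted p of 0.052 in each, and DESeq2 called both lower (adjusted p = 0.0024 and 0.0035). Of the 43 tested partner genes, Rfx5 (log2 fold change 1.37 ± 0.26, edgeR adjusted p = 0.019) and Cd276 (2.60 ± 0.28, adjusted p = 0.0029) were higher and none lower. The call of RT1-M4 was lost without N1, N12, G28 or G42. Without N1 or G28 no member was called by edgeR (6 and 7 at an unadjusted p under 0.05), without N12 RT1-Da and RT1-Ba were higher, and without G42 RT1-N2 was lower. In the same order, these fits called 207, 212, 335 and 361 of all genes, against 696 with all rats. The 3 comparisons share their groups, since each group enters 2 of them.

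Rats within a group differed in a way that many members shared. Of the 10 tested class II members, N12 was the highest normal rat for 8, M24 the highest DEN rat for 8 and G27 the highest PZH rat for 9, while N3 was lowest for 7, M17 for 9 and G42 for 9. Among the 27 class I heavy chain and assembly genes, N12 was highest for 23 and N3 lowest for 20 of the normal rats. Of the PZH rats, G27, the deepest library, was highest for 19 of these 27 genes.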

How the data were processed

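The authors trimmed reads with fastp, aligned them with HISAT2 2.1.0 and assembled and counted them with StringTie 1.3.3b, as their processing notes list these tools; the genome build is not given in the sources used here. The deposited count columns hold whole, unnormalized reads per gene and rat. The FPKM columns deposited by the authors equalled counts divided by gene length and library total, within a relative 0.001. Columns of the authors' own comparisons (fold changes with their P and Q) were not used; their notes also list edgeR 3.30.3. For each comparison of 6 rats, genes passing filterByExpr were tested by edgeR 4.0.16 (quasi-likelihood with TMM factors, R 4.3.3), with Benjamini-Hochberg adjustment across every gene tested. DESeq2 1.42.0 was an alternative. A floor of 3 reads equals 0.125 to 0.252 CPM, and intervals cover counting error only. Rats are separate animals with 1 library each. Members and lists were chosen with earlier results of these data known. Values per rat are given for the 11 genes named by symbol and for RT1 genes called in a comparison or with a mean of at least 10 CPM in a group. The pipeline was tested on simulated data. A further 8 genes described as histocompatibility genes are no members.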

Additional observations from a re-analysis of the deposited data

How the results depend on the processing

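In DEN against normal rats the count of changed members was 16, and 5 at the study's thresholds. It was 11 to 23 under the other alternatives and 13 to 18 when each rat was left out in turn. Over all genes edgeR called 6529, 9084 with library totals and 4724 to 6790 when each rat was left out. No called member changed direction in any comparison. In PZH against DEN rats the count was 3. It was 17 with library totals, 8 with DESeq2, 2 with all groups in 1 fit, 0 at the study's thresholds by edgeR (10 at an unadjusted p under 0.05) and 0 to 10 when each rat was left out. The calls over all genes moved too, from 2722 to 6252 with library totals, 3781 with DESeq2 and 2889 with all groups in 1 fit. They were 271 to 3319 when each rat was left out. In PZH against normal rats the count was 1. It was 3 with library totals, 5 with DESeq2, 3 without a filter on low counts, 0 with at least 10 counts in every rat (7 at an unadjusted p under 0.05), 2 with all groups in 1 fit and 0 to 2 when each rat was left out. Here 696 of all genes were called, and in the same order 909, 1320, 790, 340 and 1000. With each rat left out, 207 to 1326 genes were called. The cause of these moves was not tested. With 10 counts demanded in every rat, RT1-M4, RT1-M5, RT1-DOa, RT1-DOb and Cd80 are no longer tested in DEN against normal rats, so that fit leaves them out by construction. Depth limits RT1-M4, RT1-M5, Cd80 and both DO chains, which rest on few reads in normal rats. No paired analysis was possible because the rat numbers in the labels are not shared between groups.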
